A study of Mus musculus with 8 samples.

Results

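Interferon-stimulated genes and interferon regulatory factors were examined in mouse pancreatic islets, the clusters of endocrine cells that hold the insulin-making beta cells. The 37 genes are targets of type I interferons (24), targets of interferon gamma (7) and transcription factors of the pathway (6). Of these, 31 were measured among the 17097 genes tested: 20 type I targets, 5 interferon gamma targets and all 6 transcription factors. Isg15, Oas1a, Ifi44, Bst2, Tap1 and B2m were not analysed here. Total RNA of islets had been hybridised to 8 Affymetrix arrays, 2 for each of 4 groups, and a value is the deposited log2 signal of 1 probe set for each gene. The groups were wild-type mice and hIAPP transgenic mice, each left untreated or given 4-phenylbutyrate (PBA), a chemical chaperone, in water at 1 g/kg/day for 12 weeks from the age of 8 weeks, with islets taken at 20 weeks. All 4 groups, wild type included, carry the strain label FVB/N-Tg(Ins2-IAPP)RFHSoel/J. In that line the insulin gene promoter Ins2 drives human islet amyloid polypeptide, an amyloid-forming hormone, in beta cells rather than in the immune, vascular or connective tissue cells of the islet. Whether both arrays of a group came from separate animals is not given in the sources used here, and a p-value then reflects only how far these samples spread.

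Type I interferons bind a receptor made of Ifnar1 and Ifnar2 and activate a complex that contains Stat2 and Irf9 and binds the interferon-stimulated response element (ISRE) in its target genes. Interferon gamma binds a receptor made of Ifngr1 and Ifngr2 and acts through the gamma-activated sequence (GAS). The interferon regulatory factors (IRFs) bind ISRE-like sites. Many targets act against viruses, such as the Ifit RNA-binding proteins, the Oas RNA sensors, the Mx and Gbp GTPases and the Ifitm membrane proteins. In islets, interferon signalling is best known from autoimmune diabetes.

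Promoters are shown of the members with a motif match and the largest log2 differences among those called in the paragraphs below. The ISRE and the GAS are the elements through which interferons act on their targets. A window from 250 bases before to 50 bases after the annotated start was given by RefSeq (mouse assembly GRCm38.p6) for 26 of the 31 measured members. Capitals mark matches, on either strand, to the ISRE motif and to TTCNNNGAA for the GAS. The windows are Ifitm3 at chr7:141010695-141010994 (minus strand), Rsad2 at chr12:26456403-26456702 (minus), Trim30a at chr7:104465144-104465443 (minus), Gbp2 at chr3:142620413-142620712 (plus), Irf8 at chr8:120736108-120736407 (plus) and Ifit2 at chr19:34550444-34550743 (plus), each printed 5′ to 3′ along its gene. The start used for the Ifit2 window lies inside the annotated gene, chr19:34550550-34576534.
Ifitm3: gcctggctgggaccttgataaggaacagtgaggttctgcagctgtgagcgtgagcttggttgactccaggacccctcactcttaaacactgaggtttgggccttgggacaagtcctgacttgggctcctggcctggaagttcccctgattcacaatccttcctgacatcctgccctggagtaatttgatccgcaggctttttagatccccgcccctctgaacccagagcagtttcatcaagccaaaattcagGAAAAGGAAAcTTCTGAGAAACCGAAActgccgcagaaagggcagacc
Rsad2: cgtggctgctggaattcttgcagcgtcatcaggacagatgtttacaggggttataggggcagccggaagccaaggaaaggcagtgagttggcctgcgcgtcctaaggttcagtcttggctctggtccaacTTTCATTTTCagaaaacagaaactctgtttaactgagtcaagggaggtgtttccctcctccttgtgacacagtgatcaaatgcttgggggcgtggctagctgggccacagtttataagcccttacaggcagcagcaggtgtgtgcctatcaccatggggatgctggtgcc
Trim30a: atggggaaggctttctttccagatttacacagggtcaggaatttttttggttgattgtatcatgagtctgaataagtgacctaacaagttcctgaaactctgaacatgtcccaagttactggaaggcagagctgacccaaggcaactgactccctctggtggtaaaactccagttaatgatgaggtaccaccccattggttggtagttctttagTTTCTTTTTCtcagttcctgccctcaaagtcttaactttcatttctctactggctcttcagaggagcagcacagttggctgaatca
Gbp2: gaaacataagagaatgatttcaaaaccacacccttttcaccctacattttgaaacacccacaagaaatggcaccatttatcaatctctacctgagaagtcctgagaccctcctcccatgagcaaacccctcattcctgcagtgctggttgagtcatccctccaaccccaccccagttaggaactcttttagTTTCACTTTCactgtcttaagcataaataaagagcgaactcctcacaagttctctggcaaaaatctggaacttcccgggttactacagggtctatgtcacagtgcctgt
Irf8: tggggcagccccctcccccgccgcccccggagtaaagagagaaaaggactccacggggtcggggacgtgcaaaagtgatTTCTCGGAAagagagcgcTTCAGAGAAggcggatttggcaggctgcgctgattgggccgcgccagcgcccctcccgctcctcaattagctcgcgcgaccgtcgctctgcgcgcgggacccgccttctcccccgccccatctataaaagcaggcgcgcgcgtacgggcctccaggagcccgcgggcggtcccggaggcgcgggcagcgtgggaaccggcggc
Ifit2: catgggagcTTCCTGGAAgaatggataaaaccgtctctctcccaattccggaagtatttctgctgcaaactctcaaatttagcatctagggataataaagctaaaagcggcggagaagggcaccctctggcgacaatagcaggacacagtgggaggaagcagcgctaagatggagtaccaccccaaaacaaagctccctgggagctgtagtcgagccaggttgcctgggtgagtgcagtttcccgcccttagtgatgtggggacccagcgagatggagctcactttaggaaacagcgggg

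In these windows the ISRE match began 120 bases before the start in Rsad2, 59 in Gbp2 and 36 in Trim30a. Ifitm3 held 2 ISRE matches and 1 GAS match just after its start, the second ISRE match overlapping the GAS match. Irf8 held 2 GAS matches, beginning 171 and 153 bases before its start, and Ifit2 held 1, beginning 241 bases before. Irf8, Ifit2 and Trim30a each had a second window that is not printed. Those of Irf8 and Ifit2 held no match, and that of Trim30a held 1 ISRE match. An ISRE match was present in 15 of the 26 members with a window, against 3.99% of 27025 genes with any window, and a GAS match in 7 of 26, against 9.55%. Of the 12 members called for the transgene or for PBA in hIAPP islets, as given in the next paragraphs, 5 had an ISRE match and 4 a GAS match. Of the other 14 members with a window, 10 had an ISRE match and 3 a GAS match. A match describes the letters only, and binding was not measured.

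On the scale of the arrays, the median of the non-specific control probe sets was 3.10 and their 95th percentile 4.68, and values under the latter are near background. PBA-treated wild type 1 had a median of 6.95 for the hybridisation controls, against 9.8 to 10.2 on the other 7 arrays. PBA-treated hIAPP 1 had the lowest median of 14 acinar marker genes, 9.2. PBA-treated hIAPP 2 was next at 10.5, against 11.0 to 12.55 on the other 6. The median of all genes was 5.9 on both untreated hIAPP arrays and 5.7 on the other 6. The arrays read whole islets, in which fewer cells of a type and less RNA per cell cannot be told apart.

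In islets of untreated hIAPP mice, 10 of the 31 members were higher than in untreated wild type and 1 was lower. The 10 were the antiviral enzyme Rsad2, the membrane proteins Ifitm1, Ifitm2 and Ifitm3, Xaf1, Trim30a, the nucleotide hydrolase Samhd1, the GTPase Gbp2, and the factors Irf5 and Irf8. Irf9 was the 1 that fell. The 11 called members are 35.5% of those measured, against 11.0% of all genes called in either direction (limma, adjusted p under 0.05), 7.77% raised and 3.19% lowered. The members' median log2 difference was 0.35, against -0.05 over all genes, and 28 of the 31 values were above 0. When each array was centred on its median, 8 members were raised and 1 lowered, against 6.33% and 19.1% of all genes. In fits that left out 1 array, all 11 kept their direction. Rsad2 then lay at 1.15 to 1.35, Ifitm3 at 1.25 to 1.55 and Irf5 at 0.70 to 1.70. Fewer members were called in each of these fits than with all 8 arrays, as were fewer of all genes.

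With PBA, hIAPP islets had lower values of 9 members and higher values of none that passed the test. The 9 were Ifit2, Rsad2, Ifitm2, Ifitm3, Xaf1, Trim30a, Samhd1, Gbp2 and Irf8. They are 29.0% of the measured members, against 8.09% of all genes called, 6.32% lowered and 1.78% raised. The median log2 difference of the members was -0.40, against 0 over all genes, and 26 of the 31 values were below 0. When each array was centred on its median, 8 were lowered and 0 raised, against 5.19% and 15.3% of all genes. This comparison shares the 2 untreated hIAPP arrays with the transgene comparison, so that their values are not independent. In fits that left out 1 array, all 9 kept their direction. Ifitm3 then lay at -1.45 to -1.25, Rsad2 at -1.55 to -1.25 and Xaf1 at -0.95 to -0.45. Fewer members were called in each of these fits than with all 8 arrays, as were fewer of all genes. In a fit of the 4 hIAPP arrays alone, or with the acinar level as a covariate, the count of called members was 0. In these fits 14 and 12 of the 31 members had an unadjusted p under 0.05 (limma), against 3762 and 2143 of all 17097 genes.

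**Figure D1:**
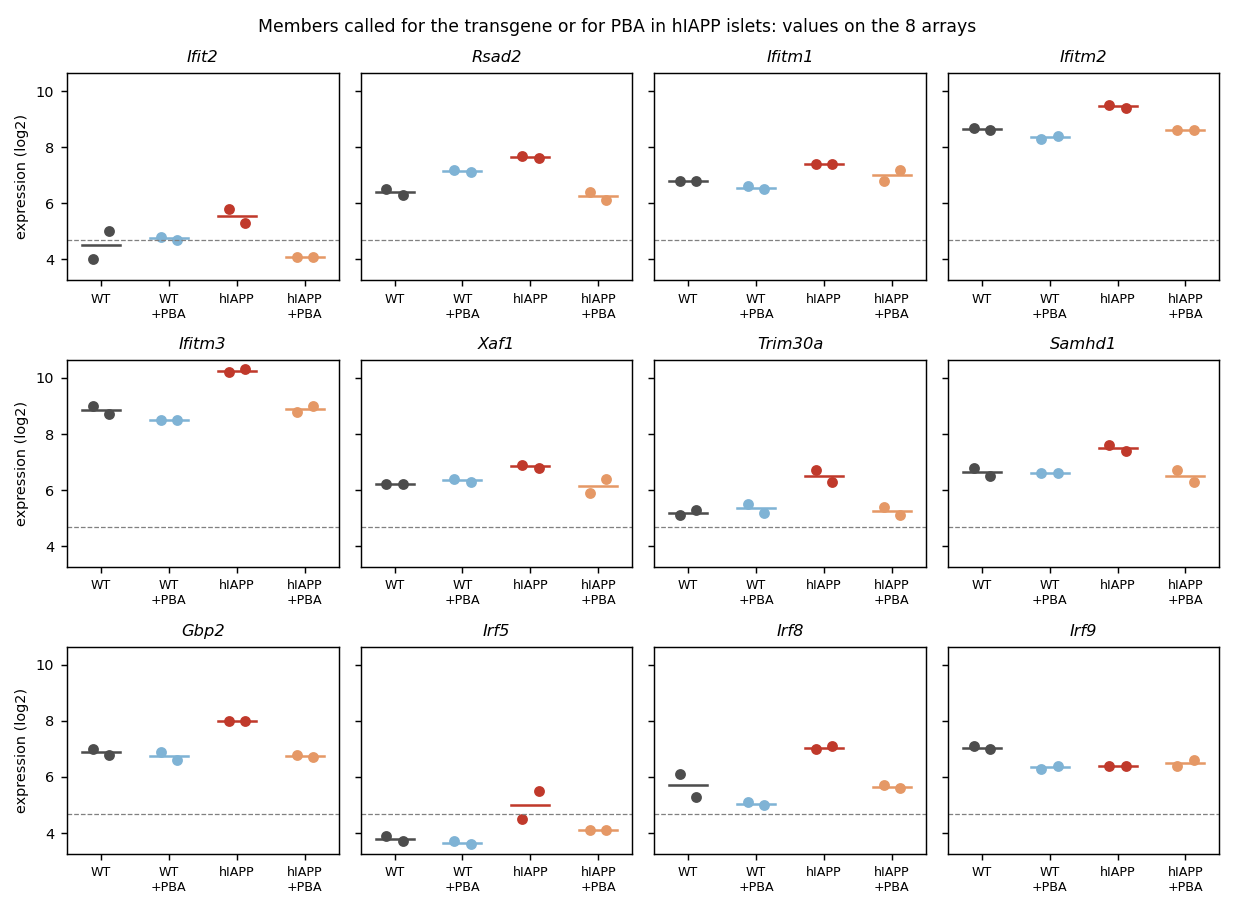
Log2 expression of the 12 members called for the transgene without PBA or for PBA in hIAPP islets, on each of the 8 arrays (points), with the group mean (bar) and the background level (dashed line at 4.68, the 95th percentile of non-specific controls). In all panels but Irf9 the 2 untreated hIAPP arrays lie at the top, and Irf9 is highest on the 2 untreated wild-type arrays.

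Among the type I targets, Ifitm3, which blocks virus entry at membranes, showed the largest rise. It read 9.0 and 8.7 in untreated wild-type, 8.5 and 8.5 in PBA-treated wild-type, 10.2 and 10.3 in untreated hIAPP and 8.8 and 9.0 in PBA-treated hIAPP islets. Both untreated hIAPP arrays were above all 6 others. The log2 difference was 1.4 for the transgene (SE 0.13, adjusted p = 0.00111), a fold of 2.64, and -1.35 for PBA in hIAPP islets (SE 0.13, adjusted p = 0.00226). It passed in all 8 fits that left out 1 array, for both comparisons.

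Its neighbours on chromosome 7, Ifitm2 and Ifitm1, had the same high group. Ifitm2 read 8.7 and 8.6, then 8.3 and 8.4 with PBA, in wild type, and 9.5 and 9.4, then 8.6 and 8.6 with PBA, in hIAPP islets. It rose by 0.80 with the transgene (SE 0.10, adjusted p = 0.00321) and fell by 0.85 with PBA in hIAPP islets (adjusted p = 0.00407). Ifitm1 read 6.8 and 6.8 in untreated and 6.6 and 6.5 in PBA-treated wild type, 7.4 and 7.4 in untreated hIAPP and 6.8 and 7.2 in PBA-treated hIAPP islets. Its rise of 0.60 passed (adjusted p = 0.0361), while its difference with PBA in hIAPP islets, -0.40, did not (adjusted p = 0.139). The rise of Ifitm1 was called only without PBA-treated hIAPP 1 or PBA-treated hIAPP 2 among the 8 fits that left out 1 array (adjusted p up to 0.181). The 3 Ifitm genes lie at chr7:140954837-140959686 (Ifitm2), chr7:140967429-140969827 (Ifitm1) and chr7:141009590-141010744 (Ifitm3) on GRCm38.p6.

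Rsad2, the radical SAM enzyme also called viperin, read 6.5 and 6.3 in untreated wild type, 7.2 and 7.1 in PBA-treated wild type, 7.7 and 7.6 in untreated hIAPP and 6.4 and 6.1 in PBA-treated hIAPP islets. On this probe set Rsad2 was high in untreated hIAPP islets and low in untreated wild-type and treated hIAPP islets. Treated wild type lay between them there, with no overlap with the other groups. The second probe set read 5.8 and 5.6 in treated wild type against 5.8 and 5.7 in untreated hIAPP islets. The third read 5.5 and 5.2 against 5.4 and 5.2, so these groups overlapped on both. The transgene difference was 1.25 (SE 0.13, adjusted p = 0.00181) and the difference with PBA in hIAPP islets -1.4 (SE 0.13, adjusted p = 0.00216). The rise passed in all 18 alternative fits, with values of 1.03 to 1.35. The fall was lost in 4 of 18, among them the fit without untreated hIAPP 1 (adjusted p = 0.0534).

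Trim30a, a RING-domain protein of the Trim family, read 5.1 and 5.3 in untreated wild type, 5.5 and 5.2 in PBA-treated wild type, 6.7 and 6.3 in untreated hIAPP and 5.4 and 5.1 in PBA-treated hIAPP islets. Only the untreated hIAPP arrays stood above the rest. It rose by 1.30 (SE 0.18, adjusted p = 0.00493) and fell by 1.25 with PBA (adjusted p = 0.00875). The rise was not called without untreated wild type 1, untreated wild type 2 or untreated hIAPP 1, and the fall not without untreated hIAPP 1 or either PBA-treated hIAPP array (adjusted p up to 0.0951).

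Samhd1, which degrades the nucleotides that retroviruses need, read 6.8 and 6.5 in untreated wild type, 6.6 and 6.6 in PBA-treated wild type, 7.6 and 7.4 in untreated hIAPP and 6.7 and 6.3 in PBA-treated hIAPP islets. Its difference was 0.85 for the transgene (adjusted p = 0.0189) and -1.0 for PBA in hIAPP islets (adjusted p = 0.0131). Xaf1, a partner of the apoptosis inhibitor Xiap, read 6.2 and 6.2, then 6.4 and 6.3 with PBA, in wild type, and 6.9 and 6.8, then 5.9 and 6.4 with PBA, in hIAPP islets. Untreated hIAPP islets were again highest for both genes, with no overlap. The differences of Xaf1, 0.65 (adjusted p = 0.0453) and -0.70 (adjusted p = 0.0437), were just past the threshold. The rise of either gene was called in 2 of the 8 fits that left out 1 array, those without a PBA-treated hIAPP array. The fall of Samhd1 was called in 3, those without untreated wild type 1, untreated wild type 2 or PBA-treated hIAPP 1, and that of Xaf1 in 1, without PBA-treated hIAPP 2. A second probe set of each gene gave smaller transgene differences, 0.40 for Samhd1 and 0.25 for Xaf1, and neither passed in the fit of all probe sets.

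The Ifit genes, which lie side by side on chromosome 19 and bind foreign RNA, did not move as a family. Ifit2 read 4.0 and 5.0 in untreated wild type, 4.8 and 4.7 in PBA-treated wild type, 5.8 and 5.3 in untreated hIAPP and 4.1 and 4.1 in PBA-treated hIAPP islets. The 2 untreated wild-type values lay far apart, and both treated hIAPP values were under the background level of 4.68. It fell by 1.45 with PBA in hIAPP islets (SE 0.31, adjusted p = 0.0324), and its transgene difference of 1.05 did not pass (adjusted p = 0.0768). Of the 8 fits that left out 1 array, the fall was called in those without untreated wild type 1 or 2, and adjusted p reached 0.223 without untreated hIAPP 1. Ifit3 had differences of 0.50 (adjusted p = 0.390) and -1.0 (adjusted p = 0.110). Ifit1 read 4.6 and 5.3, then 5.0 and 4.8 with PBA, in wild type, and 5.4 and 4.7, then 5.1 and 5.2 with PBA, in hIAPP islets. The 4 groups of Ifit1 overlapped, with differences of 0.10 (SE 0.28) in both comparisons.

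The RNA sensors and the Oas and Mx genes completed the type I targets. Ifih1, the double-stranded RNA sensor MDA5, read 5.3 and 5.3, then 4.9 and 5.6 with PBA, in wild type, and 6.5 and 6.0, then 5.7 and 5.5 with PBA, in hIAPP islets. Its 2 untreated hIAPP values were the highest, and its transgene difference of 0.95 lay just outside the threshold (SE 0.25, adjusted p = 0.0530). Ddx58, the sensor RIG-I, had differences of 0.20 (adjusted p = 0.415) and -0.15 (adjusted p = 0.573). Its other probe sets gave transgene differences of the opposite sign, -0.35 and -0.40, and neither passed in the fit of all probe sets. The last of these read 3.5 to 4.2, under the background level. Usp18, the protease that removes Isg15 from proteins, had 0.35 (adjusted p = 0.207) and -0.15. Oas2, Oas3, Mx1 and Zbp1 had group means below 4.68 in all 4 groups, so that a change in them was hard to detect. Oasl1, Oasl2 and Mx2 had transgene differences of -0.10 to 0.25, and Mx2 was the only 1 of the 3 with an unadjusted p under 0.05 for PBA in hIAPP islets (-0.45, adjusted p = 0.0896). In all, 7 of 20 type I targets rose with the transgene, at a median of 0.42 over the class, and 7 of 20 fell with PBA in hIAPP islets, at a median of -0.45.

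Among the 5 interferon gamma targets, Gbp2, a GTPase that attacks the vacuoles of intracellular pathogens, was the 1 that passed. It read 7.0 and 6.8 in untreated wild type, 6.9 and 6.6 in PBA-treated wild type, 8.0 and 8.0 in untreated hIAPP and 6.8 and 6.7 in PBA-treated hIAPP islets. The untreated hIAPP arrays stood above the other 6, which overlapped. Gbp2 rose by 1.10 with the transgene (SE 0.13, adjusted p = 0.00277), a fold of 2.14, and fell by 1.25 with PBA in hIAPP islets (adjusted p = 0.00283). The rise passed in all 8 fits that left out 1 array, and the fall in 7, with an adjusted p of 0.0575 without untreated hIAPP 1. A second probe set gave 1.10 and -1.30.

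The other 4 gamma targets, Gbp3, Gbp7 and the immunity-related GTPases Igtp and Irgm1, had transgene differences of 0.05 to 0.35 and differences with PBA in hIAPP islets of -0.60 to -0.40. Each of the latter had an unadjusted p under 0.05 and an adjusted p of 0.0911 to 0.170. Gbp3 and Gbp7 are neighbours of Gbp2 on chromosome 3. Gbp7 read 7.9 and 7.8 in untreated wild type and 7.9 and 7.9 in untreated hIAPP islets, against 7.4 and 7.6 in treated hIAPP islets, so that its high values were not those of the transgene. The median of the class was 0.35 for the transgene, or 0.05 without untreated wild type 2, and -0.40 for PBA in hIAPP islets.

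**Figure D2:**
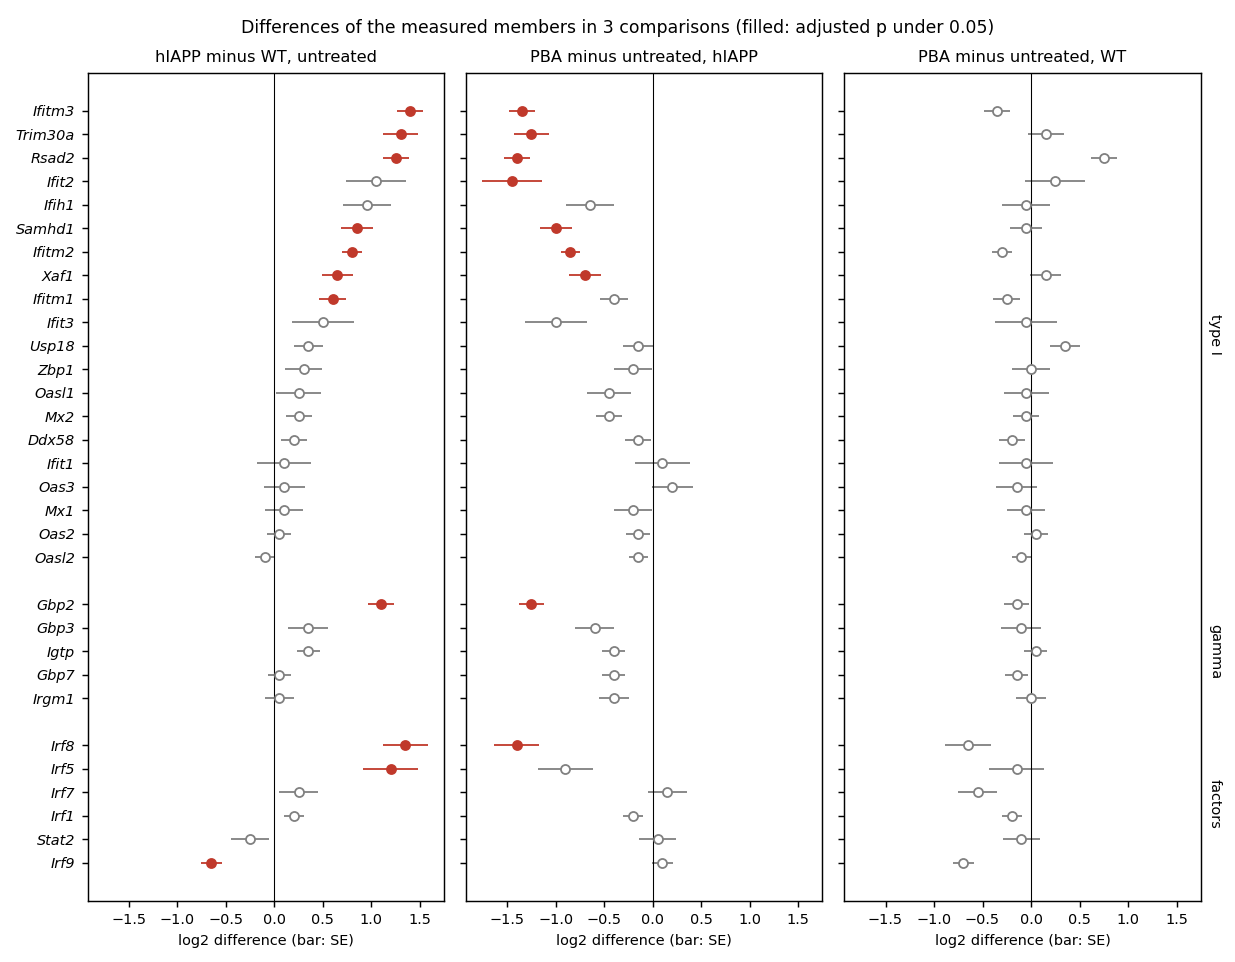
Log2 difference (point) and SE (bar) of the 31 measured members for the transgene without PBA, for PBA in hIAPP islets and for PBA in wild-type islets, in 3 classes from top to bottom, with filled points where the adjusted p was under 0.05. For the transgene 10 filled points lie to the right and Irf9 to the left, for PBA in hIAPP islets 9 lie to the left, and for PBA in wild type none is filled, Rsad2 at 0.75 and Irf9 at -0.70 being farthest from 0.

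The transcription factors went different ways. Irf8, a factor of macrophage and dendritic cell development, read 6.1 and 5.3 in untreated wild type, 5.1 and 5.0 in PBA-treated wild type, 7.0 and 7.1 in untreated hIAPP and 5.7 and 5.6 in PBA-treated hIAPP islets. The 2 untreated wild-type values differed by more than those of any other group, and both untreated hIAPP values were above them. Irf8 rose by 1.35 with the transgene (SE 0.23, adjusted p = 0.0110) and fell by 1.4 with PBA in hIAPP islets (adjusted p = 0.0129). A second probe set gave 2.05 and -1.80, and its untreated wild-type values, 5.0 and 4.9, lay close together. The rise was lost without either PBA-treated wild-type array or either untreated hIAPP array (adjusted p up to 0.107), and the fall was called only without untreated wild type 1 or 2.

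Irf5, which acts below Toll-like receptors in myeloid cells, read 3.9 and 3.7, then 3.7 and 3.6 with PBA, in wild type, and 4.5 and 5.5, then 4.1 and 4.1 with PBA, in hIAPP islets. Of these 8 values, 7 were under 4.68. The rise of 1.20 (SE 0.28, adjusted p = 0.0379) thus rests on untreated hIAPP 2. Without that array it was 0.70 (adjusted p = 0.05004), without untreated hIAPP 1 it was 1.70 and passed, and it failed without each of the other 6 arrays in turn (adjusted p up to 0.234). The difference with PBA in hIAPP islets was -0.90 (adjusted p = 0.106).

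Irf9, the DNA-binding part of the complex that answers type I interferon, went the other way. It read 7.1 and 7.0 in untreated wild type, 6.3 and 6.4 in PBA-treated wild type, 6.4 and 6.4 in untreated hIAPP and 6.4 and 6.6 in PBA-treated hIAPP islets. The untreated wild-type arrays were above all 6 others, which overlapped. Irf9 fell by 0.65 with the transgene (SE 0.11, adjusted p = 0.00999). Its difference with PBA in wild type, -0.70 (SE 0.11), did not pass (adjusted p = 0.0717), and with PBA in hIAPP islets it was 0.10 (adjusted p = 0.647). The fall with the transgene was not called without any 1 of the 4 arrays it compares (-0.70 to -0.60, adjusted p up to 0.0743).

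Its partner Stat2 read 5.7 and 6.0, then 5.6 and 5.9 with PBA, in wild type, and 5.8 and 5.4, then 5.8 and 5.5 with PBA, in hIAPP islets, and all 4 groups overlapped. Irf7, which amplifies interferon alpha production, read 5.3 and 4.9, then 4.3 and 4.8 with PBA, in wild type, and 5.3 and 5.4, then 5.4 and 5.6 with PBA, in hIAPP islets. Treated wild type was lowest for Irf7, and the difference between treated hIAPP and treated wild type, 0.95 (SE 0.20), did not pass (adjusted p = 0.142). Irf1, an early target of interferon gamma, was between 7.8 and 8.3 on all arrays, with a transgene difference of 0.20 (adjusted p = 0.283).

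In wild-type islets no member passed for PBA (limma), where 0.292% of all genes did. An unadjusted p under 0.05 was found for 6 of the 31 members and for 1800 of the 17097 genes. Rsad2 had the largest value above 0, 0.75 (SE 0.13, adjusted p = 0.106), and Irf9 the largest below. These 2 genes were called in that comparison in the fits with the mean of all probe sets of a gene and with a trended, robust variance prior, and Irf9 alone after the filter on low values. The 3 probe sets of Rsad2 differed by 0.75, 0.80 and 1.05 with PBA in wild type, and by -1.4, -0.50 and -0.90 with PBA in hIAPP islets.

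The difference between the 2 PBA responses was tested as an interaction, the PBA effect in hIAPP islets minus that in wild type. It was below 0 for 4 of the 31 members past the threshold, 12.9%, against 1.96% of all genes called in either direction, 1.69% lowered and 0.269% raised. Rsad2 had -2.15 (SE 0.19, adjusted p = 0.00765), Trim30a -1.4 (SE 0.26, adjusted p = 0.0499), Gbp2 -1.10 (SE 0.19, adjusted p = 0.0395) and Ifitm3 -1.0 (SE 0.19, adjusted p = 0.0499). The 4 members differ in what lies behind that value. Trim30a and Gbp2 moved by 0.15 and -0.15 with PBA in wild type and Ifitm3 by -0.35, none past the threshold, while the 2 PBA-treated wild-type values of Rsad2 were above the untreated ones. In fits that left out 1 array, the interaction was -2.3 to -2.0 for Rsad2 and -1.15 to -0.85 for Ifitm3. It was -1.6 to -1.2 for Trim30a and -1.25 to -0.95 for Gbp2. No member's interaction was called there, but hardly any of all genes were, with 1 array left in a group. For Irf9 the interaction was 0.80 (SE 0.15, adjusted p = 0.0542). It passed after median centring, with Rsad2 the 1 member then lowered, and after quantile normalisation, with 3 members lowered.

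**Figure D3:**
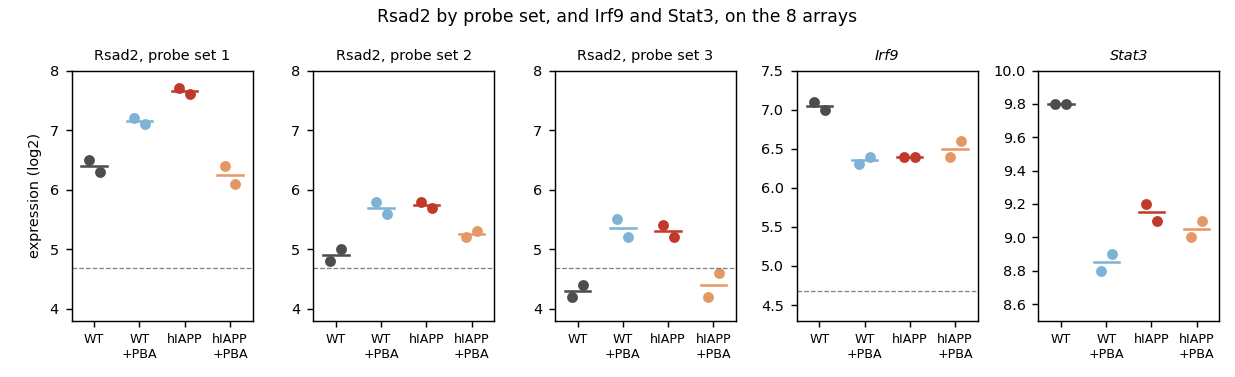
Log2 expression of the 3 probe sets of Rsad2, and of Irf9 and Stat3, on each array (points) with the group mean (bar) and the background level (dashed line at 4.68, the 95th percentile of non-specific controls), each panel of the last 2 with its own vertical range. All 3 probe sets of Rsad2 lie higher on the PBA-treated than on the untreated wild-type arrays and lower on the PBA-treated than on the untreated hIAPP arrays, and Irf9 and Stat3 are highest on the 2 untreated wild-type arrays.

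Treated hIAPP islets were set against untreated wild type to see what remained of the transgene differences under PBA. No member passed (limma), against 0.368% of all genes. An unadjusted p under 0.05 was found for 3 of the 31 members and for 1876 of the 17097 genes. The differences ran from -0.55 to 0.40, with a median of -0.05. For Ifitm3 the difference was 0.05 (95% interval -0.26 to 0.36), for Ifitm2 -0.05 (-0.28 to 0.18), for Gbp2 -0.15 (-0.46 to 0.16), for Rsad2 -0.15 (-0.47 to 0.17) and for Trim30a 0.05 (-0.38 to 0.48). These intervals do not reach the size of the same gene's difference in untreated islets. Each value here is the sum of that difference and the PBA difference in hIAPP islets, from the same arrays. These genes had been called in opposite directions in both comparisons, so the intervals are not separate evidence that a difference was lost. The interval of Irf8, -0.60 to 0.50, was wider. The 3 with an unadjusted p under 0.05 were all below 0: Irf9 (-0.55), Gbp7 (-0.35) and Oasl2 (-0.25).

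Under PBA, the transgene comparison called no member either (limma), against 0.421% of all genes (0.322% raised). An unadjusted p under 0.05 was found for 2072 of the 17097 genes and for 6 of the 31 members. Of these, Rsad2 was lower in treated hIAPP than in treated wild-type islets, by -0.90 (SE 0.13, adjusted p = 0.0538). Irf7 (0.95), Irf8 (0.60), Ifitm1 (0.45), Ifitm3 (0.40) and Ifitm2 (0.25) were above 0. The second probe set of Irf8 was higher in treated hIAPP than in treated wild-type islets by 1.05 (adjusted p = 0.0432 in the fit of all probe sets). Rsad2 was called lower with the filter on low values, with the mean of all probe sets and with the trended prior, and Irf7 higher with the last of these.

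**Figure D4:**
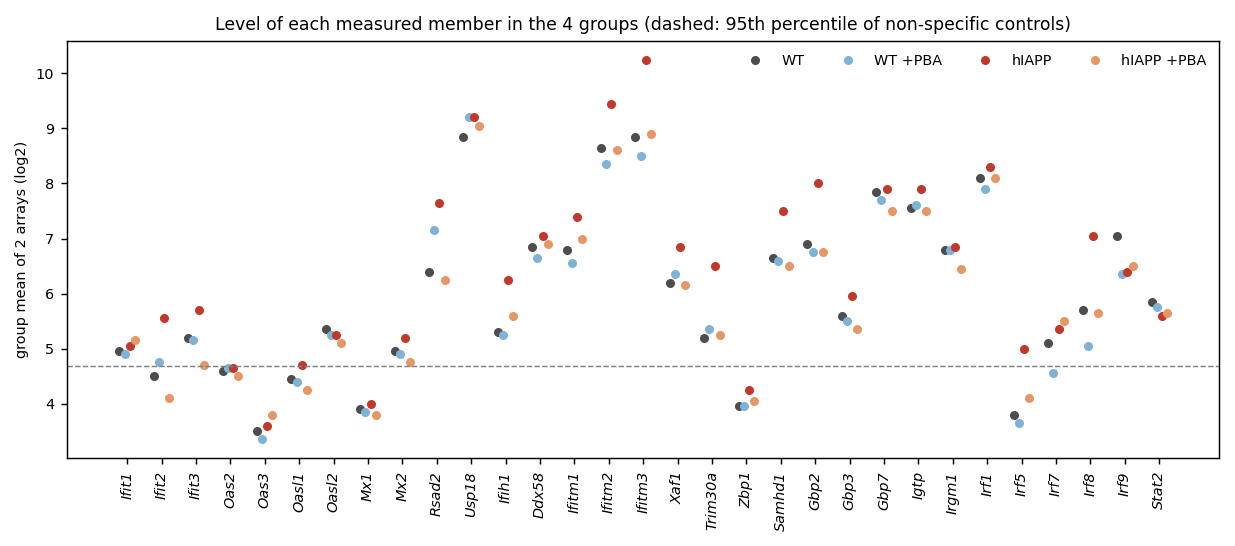
Mean log2 level of the 2 arrays of each group for the 31 measured members, by class from left to right (type I targets, interferon gamma targets, transcription factors), with the background level (dashed line at 4.68, the 95th percentile of non-specific controls). Levels of different genes come from different probes and are not to be ranked, and Oas2, Oas3, Mx1 and Zbp1 lie below the line in all 4 groups.

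Upstream of the members, none of 9 measured interferon ligand genes was above background. All 9 had means below 4.68 in all 4 groups. Ifnb1 lay between 3.3 and 4.2 and Ifng between 3.0 and 3.3 on the 8 arrays, and no ligand passed for the transgene or for PBA in hIAPP islets (limma; 0 and 1 with an unadjusted p under 0.05). A change in ligand RNA was not detectable at this level.

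Of 15 measured receptor and signalling genes, 3 rose and 1 fell with the transgene, against 7.77% and 3.19% of all genes. Both chains of the interferon gamma receptor rose, Ifngr1 by 0.90 (SE 0.12, adjusted p = 0.00346) and Ifngr2 by 1.15 (SE 0.21, adjusted p = 0.0133), as did Il10rb, a chain shared with the interferon lambda receptor, by 0.75 (adjusted p = 0.00944). Ifngr1 read 6.6 and 6.6 in untreated wild type, 7.6 and 7.4 in untreated hIAPP and 6.8 and 6.6 in treated hIAPP islets. With PBA in hIAPP islets Ifngr1 fell by 0.80 (adjusted p = 0.00830) and Il10rb by 0.55 (adjusted p = 0.0389), while Ifngr2, also at -0.80, did not pass (adjusted p = 0.0623). The type I receptor chain Ifnar1 had differences of -0.10 (adjusted p = 0.775) and -0.15 (adjusted p = 0.646).

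Stat3, the factor of interleukin 6 family cytokines, was the 1 signalling gene that fell. It read 9.8 and 9.8 in untreated wild type, 8.8 and 8.9 in PBA-treated wild type, 9.2 and 9.1 in untreated hIAPP and 9.0 and 9.1 in PBA-treated hIAPP islets. As for Irf9, the untreated wild-type arrays stood above the other 6. Its difference was -0.65 for the transgene (SE 0.10, adjusted p = 0.00671), -0.95 for PBA in wild type (adjusted p = 0.0197) and -0.75 for treated hIAPP against untreated wild type (adjusted p = 0.0376).

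Of 12 measured genes of nucleic acid sensing, 2 (16.7%) rose with the transgene, against 7.77% of all genes. The same 2 fell with PBA in hIAPP islets, against 6.32% of all genes. They were Sting1, the adaptor of cytosolic DNA sensing (1.15, adjusted p = 0.00677, and -1.25, adjusted p = 0.00779), and Unc93b1, which carries Toll-like receptors to endosomes (0.65, adjusted p = 0.0297, and -0.60, adjusted p = 0.0493). Tlr7, Tlr8, Tlr9 and the DNA sensor Cgas were below 4.68 in all 4 groups.

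Interferon targets beyond the 37 members were counted on a longer list. Of 28 further type I targets, 5 rose and 0 fell with the transgene, against 7.77% and 3.19% of all genes. With PBA in hIAPP islets 7 fell, against 6.32% of all genes. Ifi27l2a read 4.7 and 4.7 in untreated wild type, 4.5 and 4.7 in treated wild type, 6.8 and 6.0 in untreated hIAPP and 4.4 and 4.5 in treated hIAPP islets, so that its untreated hIAPP values lay above the other 6, which were near the background level or below it. It rose by 1.70 (SE 0.23, adjusted p = 0.00449), fell by 1.95 with PBA in hIAPP islets (adjusted p = 0.00440) and had an interaction of -1.85 (adjusted p = 0.0440). Phf11a rose by 0.75 (adjusted p = 0.00764) and the DNA-binding Ifi205 by 1.25 (adjusted p = 0.0183).

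Of 22 further interferon gamma targets, 4 rose and 1 fell with the transgene, against 7.77% and 3.19% of all genes. With PBA in hIAPP islets 6 fell, against 6.32% of all genes. The GTPase Gbp10 rose by 1.4 (SE 0.21, adjusted p = 0.00621) and fell by 1.30 (adjusted p = 0.0119), and the GTPase Tgtp1 rose by 0.90 (adjusted p = 0.0135) and fell by 1.05 (adjusted p = 0.0102). Tgtp1 read 6.9 and 6.6 in untreated wild type, 7.4 and 7.1 in treated wild type, 7.8 and 7.5 in untreated hIAPP and 6.6 and 6.6 in treated hIAPP islets. Its groups stood in the same order as those of Rsad2 in wild type, treated above untreated, and its interaction was -1.55 (adjusted p = 0.0280). The immunoproteasome subunits Psmb8, Psmb9 and Psmb10 fell by 0.55, 0.65 and 0.75 with PBA in hIAPP islets (adjusted p at most 0.0177), with transgene differences of 0.20 to 0.35 that did not pass. With PBA in wild type they also lay below 0, at -0.60, -0.25 and -0.50 (limma, adjusted p = 0.087, 0.413 and 0.220). Their interactions were 0.05, -0.40 and -0.25, none past the threshold. The chemokines Cxcl9, Cxcl10 and Cxcl11 were below 4.68 in all 4 groups.

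Markers of several cell types moved with the members. Over all genes, 7.77% rose and 3.19% fell with the transgene, and 6.32% fell with PBA in hIAPP islets. Of 20 macrophage markers, 16 rose with the transgene and 16 fell with PBA in hIAPP islets. Their median per array was 6.4 and 6.4 in untreated wild type, 5.85 and 5.95 in treated wild type, 8.4 and 8.15 in untreated hIAPP and 7.35 and 7.1 in treated hIAPP islets, and Cd163 was below 4.68 in all groups. In treated islets 11 of the 20 were higher in hIAPP than in wild type, against 0.322% of all genes. Endothelial markers (8 of 12 higher and 9 of 12 lower) and stellate and fibroblast markers (10 of 12 higher and 9 of 12 lower) moved in the same directions for the transgene and for PBA in hIAPP islets. Of 14 acinar markers, 0 passed for the transgene, at a median of 0.20. For PBA in hIAPP islets 13 lay below 0, at a median of -2.175, and 2 passed. There 12 had an unadjusted p under 0.05 (limma), against 3930 of all 17097 genes. Of 10 T and NK cell markers, 8 were below 4.68 in all groups, Cd8a, Ncr1 and Nkg7 among them, while Cd3d rose by 1.15 (adjusted p = 0.00999) and fell by 1.20 (adjusted p = 0.0118). Of 8 dendritic cell markers, 3 rose (Itgax, Clec10a and Cd209a) and 2 fell (Clec10a and Cd209a). Of 5 B cell markers, Blnk passed in both comparisons (1.60 and -1.60), and the median of the list was 1.60 and -1.60. The B cell markers Ms4a1 (7.9 and 4.7) and Jchain (8.5 and 5.3) also differed between the 2 untreated wild-type arrays, in the direction in which the main probe set of Irf8 did. The second probe set of Irf8 read 5.0 and 4.9 on these arrays. Of 5 neutrophil markers, 0 rose and 1 fell with the transgene, and 2 fell with PBA in hIAPP islets. The median of 14 islet endocrine genes was 11.85 and 11.85 in untreated hIAPP islets and 12.0 to 12.35 on the other arrays. Irf5 and Irf8 are themselves expressed by macrophages. The part of cell composition in the members' differences was not tested.

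**Figure D5:**
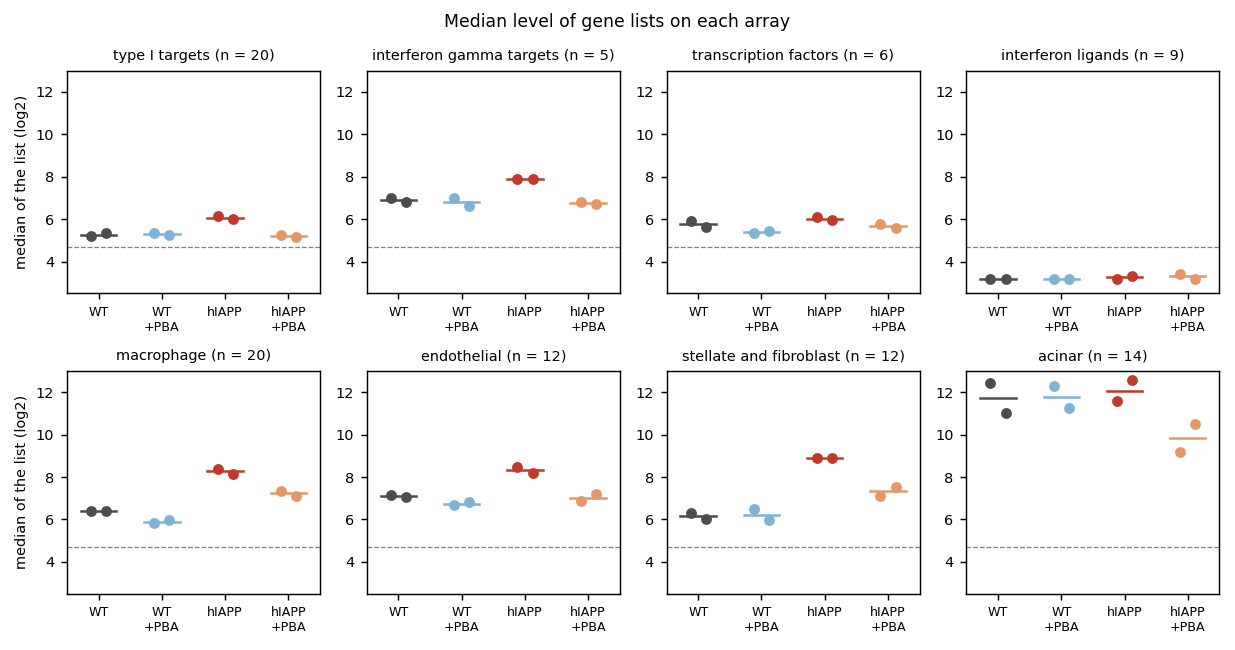
Median log2 level on each array (points, with the group mean as a bar) of the 3 member classes, the interferon ligands, and the macrophage, endothelial, stellate and acinar marker lists, with the background level (dashed line at 4.68, the 95th percentile of non-specific controls). The type I and gamma classes and the macrophage, endothelial and stellate lists are highest on the 2 untreated hIAPP arrays, the ligands stay near 3.2 to 3.4, and the acinar list is lowest in treated hIAPP islets.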

How the data were processed

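Islet RNA of 8 arrays was measured by the authors, and the deposited value of each probe set is on the log2 scale, made with RMA in the affy package, per the submitters' processing notes. RMA sets all arrays to 1 distribution, which removes shifts common to all genes. Values are rounded to 1 decimal. Of 45141 probe sets, 104 controls were left out, 28898 name 1 gene, 551 several and 15588 none. Each of 17097 genes was read from its probe set of highest overall mean.

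Comparisons used limma 3.58.1 (R 4.3.3), in 1 fit of 4 group means over all 8 arrays (4 residual and 3.27 prior degrees of freedom). Tests were two-sided, with Benjamini-Hochberg adjustment over the 17097 genes and a threshold of 0.05. The number of arrays, 2 per group, limits precision. On simulated data the fit recovered 6% of changes of 0.5 (log2) and 90% of changes of 1 for the transgene comparison. Fewer genes were changed there than the 1874 called in that comparison, which makes the adjustment stricter. RefSeq tables were read with Python 3.11.15 and pandas 2.3.3, and plots drawn with matplotlib 3.10.9.

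The members, lists, motifs and alternatives were chosen with earlier results of these data known. All 37 members are accounted for. Values on each array are given for members called for the transgene, for PBA in hIAPP islets or in the interaction, for Ifit1, Irf7 and Stat2, and for some others chosen after their values were seen. From each list of other pathway genes, up to 6 of the called genes are named, and Ifng, Ifnb1, Ifnar1 and Ifngr1 in any case. Promoters are shown for 6 called members with a motif match and the largest differences.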

Additional observations from a re-analysis of the deposited data

Results flagged for a closer look

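The PBA effect differed between genotypes for 4 members, by the interaction test of the limma fit. The PBA effect in hIAPP islets minus that in wild type was -2.15 for Rsad2, -1.4 for Trim30a, -1.10 for Gbp2 and -1.0 for Ifitm3, each on the log2 scale. With 2 arrays a group, no group could be tested for a stray array.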

How the results depend on the processing

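No called member reversed its direction under any alternative run. For the transgene without PBA, 11 members were called, and 5 to 10 when 1 array was left out. The count was 4 (Rsad2, Ifitm1, Xaf1 and Irf9) both in a fit of the 4 arrays compared and without the pair PBA-treated hIAPP 1 and PBA-treated wild type 1, and 8 to 14 under the other alternatives. For PBA in hIAPP islets 9 were called, and fewer, as of all genes, when 1 array was left out. The count was 0 with the 4 arrays alone or with the acinar covariate. It was 7 to 13 in the other fits with 2 arrays in each group. With the 4 arrays alone and with the acinar covariate, 14 and 12 members had an unadjusted p under 0.05 (limma). Of all 17097 genes, 3762 and 2143 had an unadjusted p under 0.05, and 14 and 37 were called after adjustment. For PBA in wild type the count went from 0 to 1 with the filter on low values, 2 with the mean of all probe sets and 2 with the trended prior. For the transgene under PBA it went from 0 to 1, 1 and 2 in the same 3 settings. For treated hIAPP against untreated wild type it was 0 in all fits. The interaction called 4 members. With 1 array in a group it called none of them, but hardly any of all genes either. With the acinar covariate it called 0 members and 0 of all genes. It called 1 (Rsad2) with all probe sets tested, 8 with the trended prior and 2 with median centring (Rsad2 and Irf9, the latter raised). The fits of the 4 arrays and those without arrays have fewer samples. For the other changes the cause was not tested.

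The replicate numbers of the labels did not pair the samples (correlations of -0.14 to 0.10 across genes for the 6 pairs of groups). With them as a block, 8 members were called for the transgene, 7 for PBA in hIAPP islets, and 1 (Rsad2) for the interaction.

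Subtracting each array's median moved the median of all genes from -0.05 to -0.25 for the transgene and from 0 to 0.20 for PBA in hIAPP islets. It left 9 and 8 members called. On that scale the medians of the type I targets were 0.23 and -0.25, and that of the transcription factors for PBA in hIAPP islets went from -0.07 to 0.12. Genes near background and differences under 1 (log2) are beyond what 2 arrays a group detect reliably.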
